A study of Mus musculus with 8 samples.

Results

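The subject is a set of 10 transcription factor genes of the myeloid lineage, out of 19505 genes with a name on the array, in leukaemia stem cells of mice with and without Pik3ca. The members are Cebpa, Cebpb, Cebpd, Cebpe, Spi1, Gfi1, Runx1, Cbfb, Myb and Lmo2. They were taken by symbol, and each had 1 row in the deposited table. Messenger RNA was measured by microarray in granulocyte-macrophage progenitors (GMPs) positive for GFP, sorted from marrow of transplanted mice whose leukaemia carried MLL-AF9, a fusion oncogene that drives myeloid progenitors to self-renew. The groups were 3 arrays of Pik3ca-/- cells (KO) and 5 arrays of wild-type cells (WT), and all 8 arrays came from MLL-AF9 leukaemia. Pik3ca encodes p110-alpha, a catalytic subunit of phosphoinositide 3-kinase. The labels do not say how Pik3ca was deleted, the strain or age of the mice, or whether arrays came from separate animals, and the p-values cover no more than the scatter among these 8 samples, which may be technical.

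Myeloid cells are specified by a small circuit of DNA-binding proteins. PU.1, the product of Spi1, and C/EBP-alpha, the product of Cebpa, open and drive the genes of granulocytes and monocytes, and C/EBP-epsilon, from Cebpe, later drives the secondary granule genes of neutrophils. RUNX1 binds DNA as a heterodimer with CBF-beta, MYB keeps progenitors proliferating, GFI1 represses the monocyte programme in favour of granulocytes, and LMO2 is a bridging protein without DNA-binding activity of its own that joins factors such as TAL1 or LYL1 and GATA proteins. Leukaemias driven by MLL fusions are known to depend on several of these factors, MYB among them.

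All values below are the deposited log2 signals, in which a difference of 1 is a 2-fold change if the base is 2, a reading that rests on the range of the values since no label states the base. Signals of different probes are not comparable as RNA amounts, so each gene was compared with itself across arrays, and its percentile rank among the 22206 transcript rows of an array is given as a description of its row. Array medians over all rows lay between 5.26 and 5.51. WT array 3 stood apart, with a mean correlation across genes with the other arrays of 0.921 against 0.968 to 0.972 for the other 7, and differences between the groups are therefore also given without it. The targeted gene, Pik3ca, was 8.73, 9.31 and 9.40 in KO and 9.48, 9.57, 8.41, 9.51 and 9.58 in WT arrays 1 to 5. The groups overlapped through WT array 3 alone, and all KO values lay below those of the other 4 WT arrays. The difference was -0.16, and -0.39 with WT array 3 left out (limma, adjusted p = 0.989). Since the deleted region is not stated, the row could not check the genotypes. All 11 GMP and primary granule markers lay above the median row on all 8 arrays. Mpo, encoding myeloperoxidase, had a median rank of 99.9% and Kit one of 99.3%. All 12 secondary granule and late neutrophil genes listed below also lay above the median row on all 8 arrays, so this does not mark the gate. Cd34, a progenitor surface marker, had a median rank of 66.95%. It was 5.63, 7.81 and 7.42 in KO and 7.24 to 10.94 in WT, a difference of -2.001 that was not called (limma, adjusted p = 0.998) and was -1.50 without WT array 3. The part of this in the members' values was not tested. In bulk RNA, fewer cells of a type and less RNA per cell cannot be told apart.

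Promoter sequences are shown for Cebpa, a gene known to be bound by its own protein family, and for Runx1, the member with the clearest split of arrays once WT array 3 was set aside, which has 2 promoter windows and 1 row in the table. RefSeq promoter windows of build GRCm38.p6 (250 bases before the start and 50 after it) were found for 6 of the 10 members, in 8 windows. The letters searched, on both strands, were TTGCG (a C/EBP half-site), GAGGAA (the PU box bound by PU.1), TGTGGT (RUNX) and CAACNG or TAACNG (MYB). Of all 32851 windows, 17.4% held the C/EBP letters, 28.3% the PU box, 16.8% the RUNX letters and 49.7% the MYB letters, so a match is a description and not a site. No match overlaps another in the sequences shown, and capitals mark the matches in the 250 bases before each start, 5′ to 3′ on the strand of the gene.
Cebpa, chr7:35119043-35119292, plus strand: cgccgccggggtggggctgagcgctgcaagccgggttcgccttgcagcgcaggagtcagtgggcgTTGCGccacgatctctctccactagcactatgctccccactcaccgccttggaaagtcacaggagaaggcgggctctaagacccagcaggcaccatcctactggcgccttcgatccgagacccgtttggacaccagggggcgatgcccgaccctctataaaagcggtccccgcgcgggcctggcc
Runx1 distal start, chr16:92826075-92826324, minus strand: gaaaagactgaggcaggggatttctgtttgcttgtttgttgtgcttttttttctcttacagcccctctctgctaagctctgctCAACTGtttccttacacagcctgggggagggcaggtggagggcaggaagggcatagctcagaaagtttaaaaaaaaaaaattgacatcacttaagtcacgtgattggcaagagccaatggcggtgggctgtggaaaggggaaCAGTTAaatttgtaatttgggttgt
Runx1 proximal start, chr16:92697330-92697579, minus strand: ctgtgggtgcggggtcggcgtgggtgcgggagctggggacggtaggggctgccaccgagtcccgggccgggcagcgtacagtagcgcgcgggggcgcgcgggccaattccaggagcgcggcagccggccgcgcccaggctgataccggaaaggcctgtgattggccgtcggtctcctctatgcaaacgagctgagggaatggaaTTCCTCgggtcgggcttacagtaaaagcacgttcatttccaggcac
Just after the distal Runx1 start, from base 25, the minus-strand letters of 2 RUNX matches (ACCACA) lie 2 bases apart, at chr16:92826029-92826050: aacaACCACAgaACCACAagtt
The Cebpa window held 1 C/EBP half-site, at position -185 from the start, and the distal Runx1 window held 2 MYB matches before the start, at -167 and -25. The proximal Runx1 window held 1 PU box, at -46, on the opposite strand.

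None of the 10 factors was called different. In the limma comparison of the 9920 tested genes, 0 (0%) passed at a Benjamini-Hochberg adjusted p under 0.05, with all arrays and again without WT array 3. Of the 10 members 9 were tested. Cebpb was below the median of its array on all 8 arrays and was not. Of the 9, 6 had a difference above 0 and 3 below, with a median of 0.01, beside a median of 0.04 over all tested genes. With WT array 3 left out, the median over all tested genes was 0.0002, and 5 of the 10 members lay above 0. At an unadjusted p under 0.05 there were 0 members, against 2.84% of all tested genes, and in 0 members did the KO and WT arrays fail to overlap, against 3.09%. Without WT array 3 there was 1 member in each of these counts, Runx1, where the background was 4.68% at an unadjusted p under 0.05 and 5.55% without overlap.

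**Figure D1:**
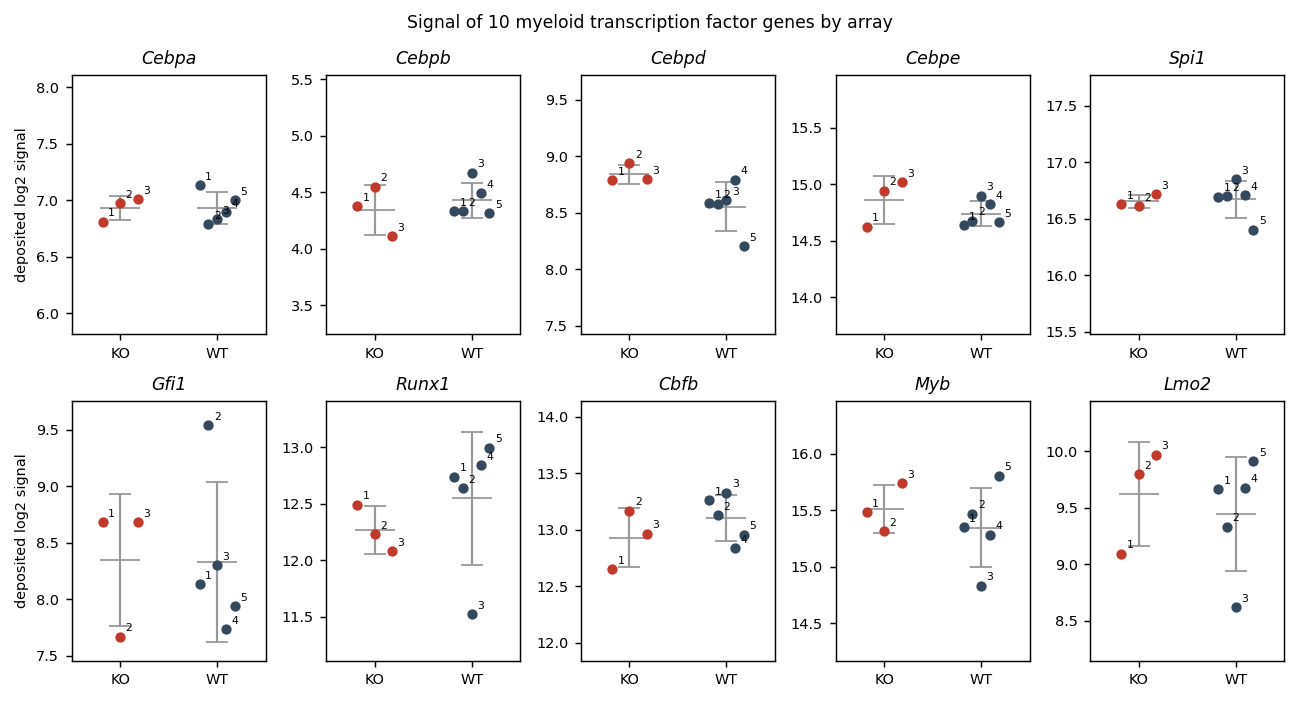
Deposited log2 signal (y axis) of each gene in the 3 KO arrays (red, left) and the 5 WT arrays (dark, right), with the array number beside each point. Grey bars are the mean and 1 SD, and each panel spans the same height on the log2 scale. Runx1 in WT array 3, at 11.52, lies apart from the other 4 WT arrays, at 12.64 to 13.00.

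Spi1 and Cebpa varied least of the members between arrays of one genotype, though Cebpe and Cebpd were nearly as steady. Spi1, encoding PU.1, was 16.63, 16.61 and 16.72 in KO and 16.70, 16.70, 16.85, 16.71 and 16.40 in WT arrays 1 to 5. The 3 KO values lay inside the range of the WT values, whose lowest was WT array 5 and highest WT array 3. The mean was 16.65 ± 0.06 in the KO arrays (SD, n = 3), against 16.67 ± 0.16 in the WT arrays (SD, n = 5), a difference of -0.02 with a 95% interval of -0.44 to 0.40 (limma, adjusted p = 0.998). Without WT array 3 the difference was 0.03. Its row ranked between 99.5% and 99.7% on every array, so PU.1 transcripts gave one of the bright signals of these cells in both genotypes.

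Cebpa, encoding the founder factor of granulocyte commitment, was 6.81, 6.98 and 7.01 in KO and 7.14, 6.79, 6.84, 6.90 and 6.999 in WT. The groups overlapped throughout. The means were 6.93 ± 0.11 in the KO arrays (SD, n = 3), against 6.93 ± 0.14 in the WT arrays (SD, n = 5), a difference of 0.0017 with an interval of -0.41 to 0.41 (limma, adjusted p = 0.999), and the exact two-sided permutation p over 56 splits of the arrays was 1. The sign turned with quantile normalization and with several single arrays left out, and the difference was -0.02 without WT array 3. On the linear scale the interval runs from 0.752 to 1.33 times the WT level. The row ranked between 61.7% and 63.1% on the 8 arrays.

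The other C/EBP genes differed in how they lay between arrays. Cebpd, encoding C/EBP-delta, which is known for its induction by cytokines and stress, was 8.79, 8.94 and 8.80 in KO and 8.58, 8.58, 8.61, 8.79 and 8.20 in WT. All 3 KO arrays lay above WT arrays 1, 2, 3 and 5, and WT array 4 lay above KO array 1 only, by a margin that disappears in rounding. The mean was 8.84 ± 0.08 in the KO arrays (SD, n = 3), against 8.55 ± 0.21 in the WT arrays (SD, n = 5), a difference of 0.29 with a standard error of 0.20, or 1.22 times the WT level. It was not called (limma, unadjusted p = 0.179, adjusted p = 0.998), and the exact two-sided permutation p was 0.0893. The difference was 0.30 without WT array 3 and stayed between 0.20 and 0.35 in each of the alternatives run, and 37.1% of all tested genes had a larger absolute difference. By percentile rank, which does not depend on the scaling of an array, all 3 KO arrays stood at 71.8% and WT arrays ran between 68.6% and 72.7%, with WT array 3 the highest of all.

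Cebpe, encoding the factor of late neutrophil maturation, was 14.62, 14.94 and 15.02 in KO and 14.64, 14.68, 14.90, 14.82 and 14.67 in WT. KO array 1 was the lowest and KO array 3 the highest of the 8. The means were 14.86 ± 0.21 in the KO arrays (SD, n = 3), against 14.74 ± 0.11 in the WT arrays (SD, n = 5), with a difference of 0.12 and an interval of -0.31 to 0.55 (limma, adjusted p = 0.998). Leaving out WT array 3 gave a difference of 0.16, leaving out KO array 1 gave 0.24, and leaving out KO array 3 gave 0.04. The row ranked between 96.9% and 97.8%, a bright signal in cells sorted as progenitors.

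Cebpb, encoding C/EBP-beta, the factor of emergency granulopoiesis, was 4.38, 4.55 and 4.11 in KO and 4.33, 4.33, 4.67, 4.49 and 4.31 in WT. It was dim everywhere, with ranks of 28.4% to 38.9%, and its difference of -0.08 (exact two-sided permutation p = 0.589) came without a limma test. Without WT array 3 it was -0.02.

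**Figure D2:**
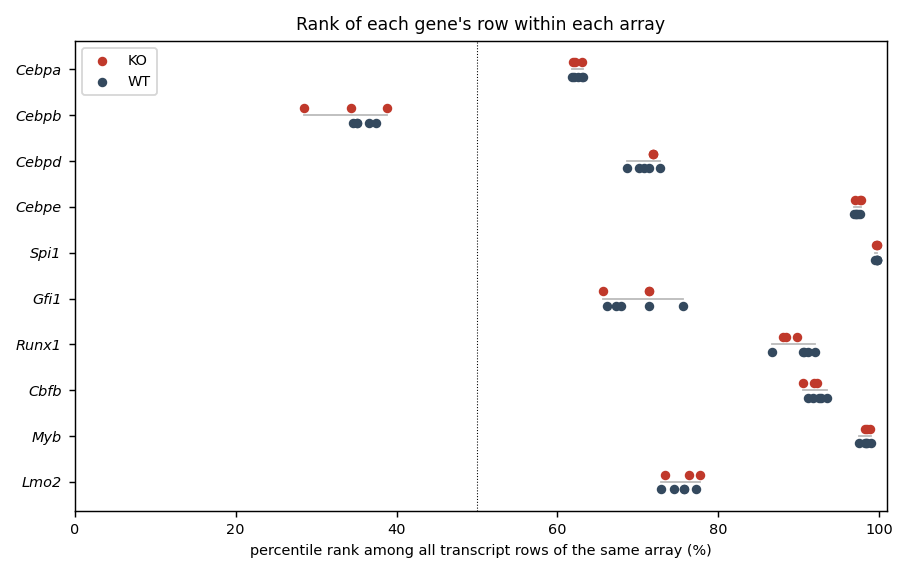
Percentile rank (x axis, in %) of each gene's row among all transcript rows of the same array, with KO arrays in red above the grey range line and WT arrays in dark below it. Spi1, Myb and Cebpe rank above 96% on every array and Cebpb below 39%, with the dotted line at 50%.

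Runx1 and Cbfb encode the DNA-binding subunit and the partner subunit of core-binding factor. Runx1 was 12.49, 12.23 and 12.08 in KO and 12.74, 12.64, 11.52, 12.84 and 13.00 in WT arrays 1 to 5. The 3 KO arrays lay below 4 of the WT arrays and above WT array 3, which was the lowest of all. The mean was 12.27 ± 0.21 in the KO arrays (SD, n = 3), against 12.55 ± 0.59 in the WT arrays (SD, n = 5), a difference of -0.28 with a standard error of 0.34 (limma, adjusted p = 0.998; exact two-sided permutation p = 0.5). Without WT array 3 the WT mean was 12.80 ± 0.15 (SD, n = 4) and the difference was -0.54 with a 95% interval of -0.94 to -0.13, or 0.690 times the WT level. The exact two-sided permutation p was then 0.0286, the smallest that 35 splits of the arrays allow, and the limma unadjusted p was 0.0159, but the adjusted p over all genes was 0.989 and Runx1 ranked 141 by unadjusted p. The array left out was chosen with the values known, so these figures are not independent support.

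The ranks of the Runx1 row split the arrays in the same way, with 88.0% to 89.8% in KO, 90.6% to 91.9% in 4 WT arrays and 86.6% in WT array 3. Runx1 in WT array 3 stood at -1.28 relative to the average of WT arrays 1, 2, 4 and 5, and 16.8% of all tested genes lay as far below or farther on that array, where the median gene had a shift of -0.15. Megakaryocyte and platelet markers, a lineage that also uses RUNX1, had a mean signal over 8 of the 10 listed markers of 5.75 to 5.93 in KO and 5.52 to 9.23 in WT, with WT array 1 the highest. Of those 8 markers 4 lay above the median row on all arrays. Runx1 was highest in WT array 5, where these markers averaged 5.60, and their part in its values was not tested.

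Cbfb, whose protein stabilises RUNX1 on DNA, was 12.65, 13.17 and 12.96 in KO and 13.26, 13.13, 13.33, 12.84 and 12.96 in WT. KO array 1 was the lowest of the 8, and the other 2 KO arrays lay within the WT range. The mean was 12.93 ± 0.26 in the KO arrays (SD, n = 3), against 13.10 ± 0.20 in the WT arrays (SD, n = 5), a difference of -0.17 with an interval of -0.66 to 0.31 (limma, adjusted p = 0.998), and it was -0.12 without WT array 3 and -0.04 without KO array 1. Within an array, the signal of the Runx1 row minus that of the Cbfb row was -0.16, -0.94 and -0.89 in KO and -0.52, -0.49, -1.80, 0 and 0.04 in WT. The groups overlapped in this balance, also without WT array 3.

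Myb and Lmo2, the factors of the progenitor state, were both lowest in WT array 3. Myb was 15.48, 15.32 and 15.74 in KO and 15.35, 15.47, 14.83, 15.29 and 15.81 in WT, with ranks of 97.5% to 98.9%. Its mean was 15.51 ± 0.21 in the KO arrays (SD, n = 3), against 15.35 ± 0.35 in the WT arrays (SD, n = 5), a difference of 0.17 (limma, adjusted p = 0.998) that was 0.04 without WT array 3, with an interval of -0.41 to 0.49. The KO values lay within the WT range.

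Lmo2 was 9.10, 9.80 and 9.97 in KO and 9.67, 9.33, 8.62, 9.68 and 9.92 in WT. It spread over 1.35 across the 8 arrays, with KO array 3 the highest. The mean was 9.62 ± 0.46 in the KO arrays (SD, n = 3), against 9.44 ± 0.50 in the WT arrays (SD, n = 5), a difference of 0.18 with an interval of -0.58 to 0.94 (limma, adjusted p = 0.998). It was -0.03 without WT array 3 and 0.44 without KO array 1, so its sign rests on single arrays.

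Gfi1, encoding the repressor that favours granulocytes over monocytes, was the most variable member. It was 8.68, 7.67 and 8.68 in KO and 8.13, 9.54, 8.30, 7.74 and 7.94 in WT, so values were far apart within each genotype. The mean was 8.34 ± 0.58 in the KO arrays (SD, n = 3), against 8.33 ± 0.71 in the WT arrays (SD, n = 5), a difference of 0.01 with an interval of -0.97 to 0.99 (limma, adjusted p = 0.999). Leaving out WT array 2, its highest value, brought the difference to 0.32, and leaving out KO array 2, its lowest, to 0.35, while without KO array 1 it was -0.16 and without WT array 3 it was 0.01. In fold terms the interval spans 0.512 to 1.99 times the WT level.

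**Figure D3:**
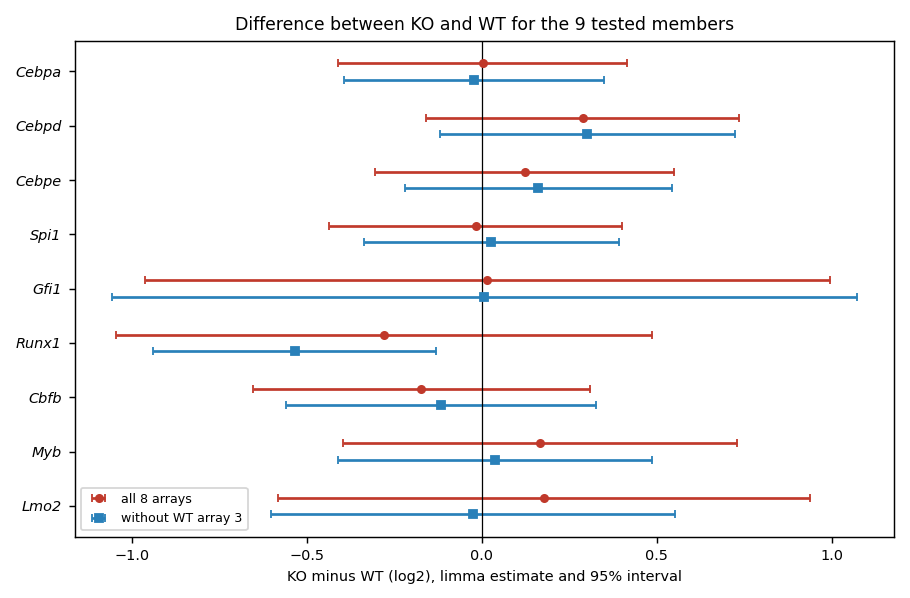
Difference between KO and WT on the log2 scale (x axis) for the 9 tested members, as limma estimates with 95% intervals, for all 8 arrays (red circles) and without WT array 3 (blue squares). Only the Runx1 interval without WT array 3, at -0.94 to -0.13, lies on one side of 0, and the widest intervals are those of Gfi1.

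The spread between arrays of one genotype set what could be seen for each factor. Pooled over both groups, the SD was 0.13 for Cebpa, 0.14 for Spi1, 0.15 for Cebpe and 0.18 for Cebpd, lower than for all but 2.36%, 2.98%, 4.11% and 7.02% of the tested genes, whose median was 0.44. Cbfb followed at 0.22 and Myb at 0.31. Lmo2 and Runx1 were near 0.49 each, and Gfi1 at 0.67 varied more than 77.3% of genes. Without WT array 3 the spread of Runx1 was 0.18, that of Lmo2 was 0.35 and that of Gfi1 was 0.73, more than in 92.5% of genes.

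**Figure D4:**
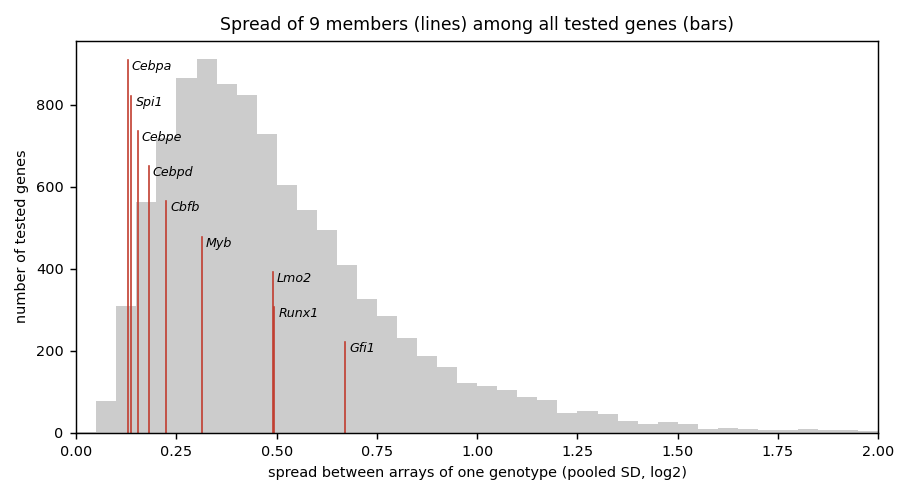
Number of tested genes (y axis) by the pooled SD between arrays of one genotype on the log2 scale (x axis), with the 9 tested members as red lines whose heights only separate the names. Cebpa, Spi1, Cebpe and Cebpd lie at the narrow end, at 0.13 to 0.18, and Gfi1 at 0.67, and 19 genes above 2 are not drawn.

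The balance of paired factors within an array, which cancels the scaling of the array, was compared as a description. The Cebpa signal minus the Spi1 signal averaged -9.72 ± 0.09 in the KO arrays (SD, n = 3), against -9.74 ± 0.25 in the WT arrays (SD, n = 5). For Cebpe minus Cebpa the averages were 7.93 ± 0.10 in the KO arrays (SD, n = 3), against 7.81 ± 0.22 in the WT arrays (SD, n = 5). Cebpa minus Myb stood at -8.58 ± 0.21 in the KO arrays (SD, n = 3), against -8.42 ± 0.33 in the WT arrays (SD, n = 5), and Gfi1 minus Spi1 at -8.31 ± 0.55 in the KO arrays (SD, n = 3), against -8.34 ± 0.69 in the WT arrays (SD, n = 5). In all 5 pairs, with Runx1 minus Cbfb, the KO and WT arrays overlapped, with all arrays and without WT array 3.

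Across arrays the members did not move as one block. Over the 7 arrays other than WT array 3, the highest correlations between members were 0.71 for Cebpa with Lmo2 and 0.68 for Cebpd with Spi1, and the lowest were -0.76 for Cebpb with Myb, -0.73 for Cebpd with Runx1 and -0.72 for Cebpe with Runx1. These arrays share the group difference, and with 7 points such values are a description. The tested gene most like each member over the same 7 arrays was Prr5 for Cebpa (r = 0.98), Nop16 for Cebpd (0.98), Gpx4 for Cebpe (0.97), Irf2 for Spi1 (0.98) and 1190007I07Rik for Gfi1 (0.98). It was Gatad2b for Runx1 (0.99), Mpi for Cbfb (0.98), Sh3bp5 for Myb (0.97) and Cd300lf for Lmo2 (0.98). With WT array 3 included these fell to between -0.14 for Mpi and 0.81 for Gpx4. A member had 16 to 67 genes with r over 0.9, where the median tested gene had 31, so close matches by this measure were common.

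Partners and relatives of the factors gave 0 called genes of all that were tested. Of the C/EBP partners and regulators, 3 of 7 were tested, and their median of 0.007 was 0.19 without WT array 3. Cebpg, which pairs with other C/EBP proteins, differed by 0.13, and by 0.19 without that array. Atf4, the stress-response factor, differed by 0.007, and by 0.19 without it. Ddit3, encoding the dominant-negative partner CHOP, differed by -0.42, and by 0.06 without WT array 3, where it was 12.79 against 10.11 to 10.59 in the other WT arrays. Trib1 and Trib2, whose proteins send C/EBP-alpha for degradation, were dim and not tested. Of 14 ETS and Runt relatives 10 were tested, 8 of them above 0, with a median of 0.23, and without WT array 3 these were 5 and 0.02. Among them Gabpa differed by 0.90, and by 0.33 without that array, Elf2 by 0.26 with and without it, and Etv6 by -0.22, and by -0.14 without it. Runx3, the paralogue of Runx1, was 13.13, 13.12 and 12.65 in KO and 12.70, 12.92, 14.78, 13.40 and 12.37 in WT, highest in the array where Runx1 was lowest.

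Lyl1 and Tal1 encode alternative partners of LMO2, and their probes are not comparable in level. Lyl1 was 15.21, 15.20 and 15.57 in KO and 15.31, 15.06, 15.14, 15.36 and 15.37 in WT, a difference of 0.07, and of 0.05 without WT array 3. Tal1 lay between 3.33 and 3.88 over the 8 arrays, below the median row, and was not tested. Of the 10 listed partners 9 were tested, 6 above 0, with a median of 0.07, and without WT array 3 these were 5 and 0.05. Ssbp2, a stabiliser of LDB1 complexes, was 6.97, 7.98 and 6.61 in KO and 6.61, 6.46, 6.44, 6.33 and 5.70 in WT, a difference of 0.88 (limma, unadjusted p = 0.0307, adjusted p = 0.998) that was 0.91 without WT array 3. KO array 3 and WT array 1 gave nearly the same value. Gata2 differed by -0.87 and Ssbp3 by -0.29, and without WT array 3 these were -0.52 and -0.14. Mast cell, basophil and eosinophil markers, which include Gata2, averaged 5.98 to 6.04 in KO and 6.13 to 7.04 in WT over all 11 listed. Of these 11, 5 lay above the median row on all arrays and 4 below it on all arrays. Prg2, an eosinophil granule gene, was 11.98 and 12.84 in WT arrays 3 and 4 and 6.22 to 8.64 in the other arrays. The part of these markers in the Gata2 values was not tested.

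All 7 listed relatives and corepressors of GFI1 were tested, 6 above 0, with a median of 0.35, and without WT array 3 these were 4 and 0.10. Hdac1, a histone deacetylase, was 13.66, 13.97 and 13.86 in KO and 13.65, 13.45, 10.99, 13.73 and 13.97 in WT, and its difference of 0.67 was 0.13 without WT array 3. Hdac2 differed by 0.35, and by 0.10 without that array, and Ajuba by 0.54, and by 0.55 without it. Of 5 MYB relatives and coactivators 3 lay above 0, with a median of 0.19, and without WT array 3 these were 4 and 0.18. Mybl1 differed by 0.74, and by 0.42 without WT array 3, Ep300, the coactivator bound by MYB, by 0.36, and by 0.18 without it, and Mybl2 by 0.19 with and without it.

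Among 20 other lineage transcription factors 9 were tested, 3 above 0, with a median of -0.10, and without WT array 3 these were 3 and -0.09. The groups did not overlap for 2 of them, Irf8 and Junb, against 3.09% of all genes. Irf8, which drives monocytes and dendritic cells and is opposed by GFI1, was 7.23, 8.71 and 8.58 in KO and 9.34, 8.91, 8.90, 9.43 and 9.17 in WT. All KO arrays lay below all WT arrays, KO array 1 the farthest, and the difference of -0.97 was not called (limma, unadjusted p = 0.0208, adjusted p = 0.998). It was -1.04 without WT array 3. Monocyte markers, which include Irf8, averaged 8.30 to 9.06 in KO and 8.31 to 9.16 in WT over 9 of 10 listed. Of the 8 tested, 6 lay below 0 and in 2, Irf8 and Ms4a6c, the groups did not overlap. The 2 above 0 were Vcam1 and Adgre1. Vcam1 had the largest absolute difference of the list, 1.52, and 1.29 without WT array 3 (limma, adjusted p = 0.998). Adgre1 differed by 0.60, and by 0.15 without that array. Ms4a6c, a monocyte membrane protein gene, was 7.90, 8.20 and 7.76 in KO and 9.39, 8.69, 9.64, 9.16 and 8.58 in WT, a difference of -1.14 (limma, unadjusted p = 0.00328, adjusted p = 0.998) that was -0.999 without WT array 3. Dendritic cell markers averaged 5.19 to 5.31 in KO and 5.35 to 5.70 in WT over all 8 listed. Of these 8, 1 lay above the median row on all arrays and 5 lay below it on all arrays. Most of the averaged rows were therefore dim. The bright row was Tcf4, at 12.73, 11.41 and 11.91 in KO and 12.45 to 14.13 in WT. Its difference of -1.10, the largest of the 3 tested, was not called (limma, unadjusted p = 0.0323, adjusted p = 0.998). Without WT array 3 it was -1.23. The part of both marker lists in the Irf8 values was not tested. Junb, an AP-1 subunit, was 11.02 to 11.09 in KO and 10.05 to 10.98 in WT, a difference of 0.41, and 0.26 without WT array 3. Nfe2 differed by 0.35, and by 0.24 without it.

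Known targets of these factors overlapped between the genotypes. Of 16 myeloid target genes all were tested, 9 above 0 and 7 below, 0 passed, and the median difference was 0.03. Leaving out WT array 3 left 7 above 0 and gave a median of -0.03, so the majority and the sign turned with that array. Elane, encoding neutrophil elastase, was 17.65 to 17.79 in KO and 17.60 to 17.89 in WT, and Csf3r, the receptor of granulocyte colony-stimulating factor and a textbook C/EBP-alpha target, was 14.39, 14.47 and 14.39 in KO and 14.34, 14.33, 13.64, 14.27 and 14.61 in WT. The 3 targets with the smallest unadjusted p were Kit, with a difference of -0.30, Lyz2, encoding lysozyme, with 0.33, and Il6ra, with -0.56, and none was called. Leaving out WT array 3 gave -0.255 for Kit, 0.31 for Lyz2 and -0.39 for Il6ra.

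The average of the secondary granule and late neutrophil genes, C/EBP-epsilon targets among them, rose from KO array 1 to 3, as Cebpe did. Cebpa and Lmo2 shared this order. Averaged over 12 genes the signal was 14.10, 14.44 and 15.04 in KO arrays 1 to 3 and 14.59, 14.71, 14.69, 14.51 and 14.47 in WT arrays 1 to 5. Single genes were divided. Ltf, Mmp8, Mmp9, Cxcr2, Itgb2l and Cd177 rose in this order. Camp, at 17.71, 17.45 and 17.8 in KO, was lowest in KO array 2, as were Lcn2, Ngp, S100a8 and S100a9. Chil3 was 15.83, 15.8 and 15.79. Cebpe was likewise lowest in KO array 1 and highest in KO array 3, and over the 8 arrays its correlation with this average was 0.58, and 0.56 over the 7 arrays other than WT array 3, given as a description. For Lmo2 the correlations were 0.226 over 8 arrays and 0.579 over 7. Among the WT arrays the order was not that of Cebpe, which was highest in WT array 3 where the average was highest in WT array 2. Of the 12 genes, 4 lay above 0 and 8 below, 0 passed, and the median difference was -0.07. With WT array 3 left out, 1 gene lay above 0 and the median was -0.04. Mmp8, a neutrophil collagenase gene, was 6.55, 8.51 and 10.79 in KO and 8.96, 9.47, 10.04, 9.40 and 8.23 in WT, and Ltf, encoding lactoferrin, was 12.92, 13.64 and 14.51 in KO and 13.75 to 14.17 in WT. Cxcr2, a chemokine receptor gene of mature neutrophils, was 8.12, 8.34 and 10.03 in KO and 7.93 to 8.61 in WT, with KO array 3 the highest of the 8, and the difference of 0.55 was 0.56 without WT array 3.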

How the data were processed

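The deposited values are log2 signals in a single table that holds 8 arrays and 28846 rows. The base was read from the range of the values, 1.89 to 18.6. Per the labels' protocols, RNA was extracted with a kit for small samples and labelled with biotin by a standard Affymetrix protocol. Which software, normalization and genome build were used is not given in the sources used here. Platform annotation supplied for its rows appears to be of another Affymetrix mouse array than the design text names, and its identifiers match the rows. No array signal flags were used here, so dim rows were set apart only by the median of their array. The number of arrays limits the precision.

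Of 22206 transcript rows, 19572 had 1 symbol. A row was tested if it lay above the median of all rows on at least 3 arrays, keeping the row of highest mean per symbol, which left 9920 genes. KO was compared with WT by limma 3.58.1 in R 4.3.3 (lmFit and eBayes, two-sided, Benjamini-Hochberg over all tested genes, threshold 0.05). For single genes, group means were permuted exactly (two-sided) over all 56 splits, so p cannot go below 0.0179. The code was tested on simulated data. Alternatives were other filters, quantile normalization, median centring, a floor, other variance models, weights per array, a replicate block, another row rule, a Welch statistic and leaving out each array.

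Members and lists were chosen with earlier results of these data known. The genes named are the members, the tested gene of highest correlation with each over 7 arrays, and the 3 genes of smallest unadjusted p in each list. Trib1, Trib2, Tal1, Lyl1, Runx3, Elane, Csf3r, Mpo, Ms4a6c, Vcam1, Adgre1, Prg2 and Cd34 were named after their values were seen. The same holds for Tcf4, Camp, Lcn2, Ngp, Chil3, S100a8, S100a9, Mmp9, Cd177 and Itgb2l. Sequences were matched by symbol to RefSeq windows of GRCm38.p6. Figures were drawn with matplotlib 3.10.9.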

Additional observations from a re-analysis of the deposited data

Results flagged for a closer look

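Among the 5 WT arrays, the gap between the extreme array and its nearest neighbour, divided by the range of the group, was computed for the 10 members, and 1 stood out. For Runx1 the gap was 0.756 of the range, with WT array 3 at 11.52 below the other 4. For a single gene chance gives about 1 in 20 groups, and 10 were searched. WT array 3 also stood apart across genes. The next were Gfi1 at 0.688, with WT array 2 the highest, and Spi1 at 0.657, with WT array 5 the lowest, neither far enough to be marked.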

How the results depend on the processing

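No gene was called under any of the 18 alternatives, and so no member, with limma or with the Welch statistic. At an unadjusted p under 0.05 there were between 217 and 592 genes, with 282 in the reported comparison, 592 when dim rows were kept and 464 without WT array 3. Cebpd, Cebpe, Runx1, Cbfb and Myb kept the sign of their difference in all 18, with Runx1 between -0.54 and -0.03. Runx1 was at -0.48 with array weights (limma, unadjusted p = 0.0409) and at -0.03 with the replicate block. The Welch statistic, an approximation at this number of arrays, gave Cebpd an unadjusted p of 0.0389, which adjusts to 0.990 over all genes.

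The other 5 members changed sign under some alternative. Cebpb, at -0.083, was between -0.184 and 0.035 with 1 array left out. Cebpa was at -0.029 with quantile normalization and -0.042 with array weights, and between -0.038 and 0.062 with 1 array left out. Spi1 was at 0.01 with array weights and between -0.085 and 0.027 with 1 array left out. Gfi1 was at -0.037 with quantile normalization, and between -0.155 and 0.352 with 1 array left out. Lmo2 was at -0.043 with array weights and between -0.026 and 0.442 with 1 array left out. The cause was not tested. The replicate numbers were not shown to pair the arrays, with correlations of deviations of 0.018, -0.018 and 0.137 for numbers 1 to 3. With the replicate block, Gfi1 was at -0.314 and 0 genes were called.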
